A study of Gallus gallus with 16 samples.

Results

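The genes described here are 100 of the 17108 rows of an expression table of laying hens. They were chosen for similar RNA levels in the pituitary gland and the ovary, within a set distance, and for a far lower level in the hypothalamus. Levels are given in FPKM, the number of sequenced fragments divided by transcript length and library size. P, O and H denote log2(mean FPKM + 1) over the 6 pituitary libraries, over the 5 ovary libraries, and over the hypothalamus libraries HEP 3 and LEP 4. A gene was eligible when it stood above 0 in all 11 pituitary and ovary libraries, when both means were at least 5 FPKM, and when P and O lay less than 1.5 apart. These conditions left 12596, 8228 and 7347 genes in turn. The members are the 100 eligible genes with the largest gap, min(P, O) minus H, so they were chosen by their measured levels in the 3 tissues.

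The birds were female Luhua chickens, a Chinese local breed, all 300 days old and fed without restriction. From 856 ranked birds, the 200 with the most eggs formed the high egg production (HEP) group and the 200 with the fewest the low (LEP) group. The labels name no treatment or genotype. The libraries analysed come from 6 hens, numbered 1 to 3 in HEP and 4 to 6 in LEP. There are 3 HEP and 3 LEP pituitaries, and 2 HEP and 3 LEP samples each of ovary and hypothalamus, hen 2 being represented by its pituitary.

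The 3 tissues form the reproductive axis. The hypothalamus releases gonadotropin-releasing hormone, the anterior pituitary answers with luteinizing and follicle-stimulating hormone, and the ovary responds with follicle growth, steroid synthesis and ovulation. Ovarian steroids and inhibin act back on the levels above. The pituitary and the ovary are glands with epithelial or follicular secretory cells in a vascular stroma, whereas the hypothalamus is nervous tissue of neurons and glia. All are mixtures of cell types, so fewer cells of a type and less RNA per cell cannot be told apart in such bulk samples.

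Each gene is known here by its Ensembl identifier alone. The files hold no gene names, and 0 of 17108 identifiers matched the reference gene table. The functions of the members, their position and the cell type markers of the tissues were therefore not examined. Individual members are given by identifier, a few per comparison.

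In 13 libraries, 13713 to 14356 genes were listed above 0 FPKM, while the hypothalamus libraries HEP 1, LEP 5 and LEP 6 listed 6186 to 6843. None of these 3 libraries entered the choice of members. A group of 3 genes held 47.3% to 75.1% of the summed FPKM of a library. Reads per library are unknown.

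Levels in pituitary and ovary spanned nearly 2 orders of magnitude among the members. The pituitary mean ranged from 5.81 to 417 FPKM with a median of 24.1, and the ovary mean from 5.69 to 386 FPKM with a median of 24.1. The hypothalamus mean had a median of 1.18 FPKM and ranged from 0 to 23.2. In 46 members it was under 1 FPKM, and in 11 it was over 5. These values chose the members and are a description only. Among the 95 members above 0 in the hypothalamus, the lower of the pituitary and ovary means was 6.012 to 297 times the hypothalamus mean, with a median of 16.3. In the 7247 eligible genes that are not members, the median of this ratio was 1.07.

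**Figure D1:**
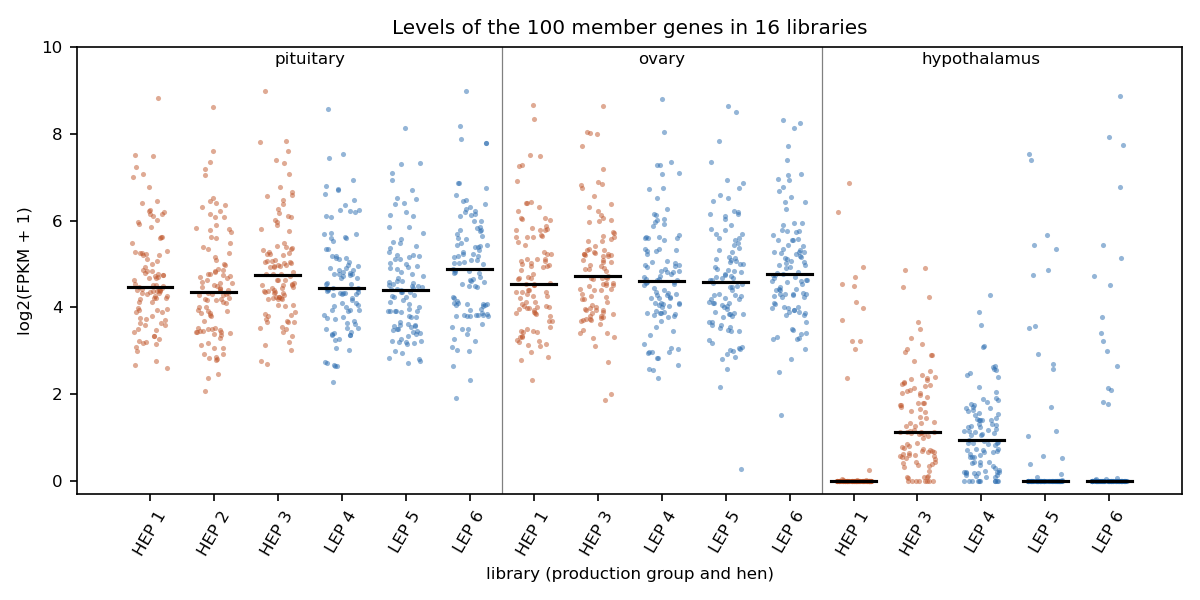
Levels of the 100 members, as log2(FPKM + 1), in each of the 16 libraries (points are genes, bars are medians, orange is HEP and blue is LEP). Library medians lie between 19.5 and 28.4 FPKM for pituitary, between 22.4 and 26.2 FPKM for ovary, and at 1.20 and 0.914 FPKM in hypothalamus HEP 3 and LEP 4, and most members are at 0 in the other hypothalamus libraries.

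ENSGALG00000008969 had the largest gap, 5.96 on the log2 scale. It stood at 181, 195 and 192 FPKM in HEP pituitaries 1, 2 and 3 and at 183, 158 and 221 FPKM in LEP pituitaries 4, 5 and 6. Its ovary levels were 85.3 and 112 FPKM in HEP 1 and 3 and 105, 115 and 123 FPKM in LEP 4, 5 and 6. Every pituitary lay above every ovary. Hypothalamus HEP 3 listed 1.17 FPKM and LEP 4 listed 0.337 FPKM, and the other hypothalamus libraries listed 0.

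ENSGALG00000001405 came next with a gap of 4.91 and stood higher in the ovary. Its pituitary values were 34.8 to 46.4 FPKM. The ovaries had 78.7 and 118 FPKM in HEP hens and 106, 95.8 and 134 FPKM in LEP hens. The hypothalamus values were 0.439 FPKM in HEP 3 and 0.199 FPKM in LEP 4. The 2 tissues that share this gene thus did not overlap in its level, and HEP and LEP libraries did overlap within each.

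ENSGALG00000027497 stood at 451, 389 and 502 FPKM in HEP pituitaries and 381, 278 and 503 FPKM in LEP pituitaries, and at 406 and 397 FPKM in HEP ovaries and 447, 362 and 317 FPKM in LEP ovaries. It had 28.1 FPKM in hypothalamus HEP 3 and 18.4 FPKM in LEP 4. ENSGALG00000026862 ranged over 135 to 234 FPKM across pituitaries and 155 to 305 FPKM across ovaries, with 21.3 and 4.85 FPKM in hypothalamus HEP 3 and LEP 4. Pituitary and ovary overlapped for both genes.

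The gap fell steeply over the first ranks and slowly at the limit. It exceeded 4 in 14 members, lay between 3 and 4 in 38 and was 3 or less in 48. The last member, ENSGALG00000010762, had a gap of 2.506, with pituitary values of 2.78 to 10.96 FPKM and ovary values of 4.17 to 8.79 FPKM. The first gene outside, ENSGALG00000015166, had a gap of 2.494, with 3.41 to 9.67 and 9.83 to 15.6 FPKM. Both were under 0.5 FPKM in the hypothalamus libraries HEP 3 and LEP 4. Of the 7347 eligible genes, 187 had a gap above 2 and 878 above 1, so the limit of 100 does not mark a break.

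**Figure D2:**
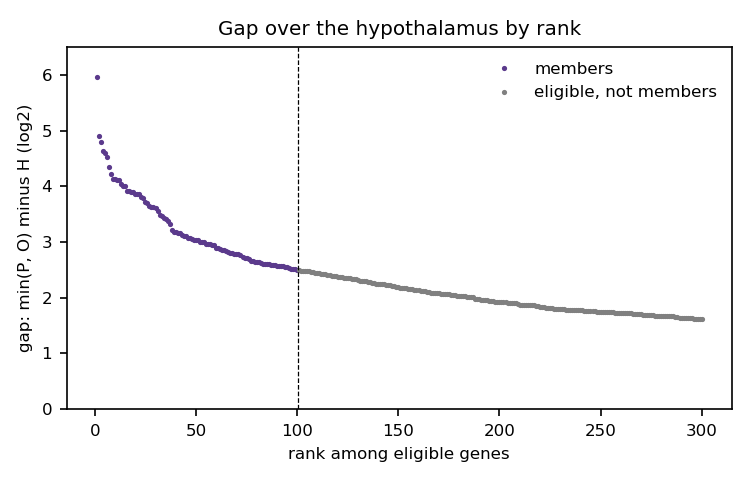
Gap, min(P, O) minus H on the log2 scale, against rank for the first 300 of 7347 eligible genes. It runs from 5.96 at the first rank to 2.506 at rank 100 (dashed line), and the next gene has 2.494.

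Of the 100 members, 41 had the higher mean in pituitary and 59 in ovary. P minus O ranged from -1.44 to 1.43 with a median of -0.14, within the 1.5 that the rule allows. It exceeded 1 in 7 members and was below -1 in 10, and 52 members lay within 0.5. Libraries of the 2 tissues overlapped in 81 members. Every pituitary lay above every ovary in 8 members, against 13.1% of the eligible genes, and every ovary above every pituitary in 11, against 29.4%. Nothing is read from these shares, since the rule used both means. In 99 members both hypothalamus libraries of the rule lay below all 11 pituitary and ovary libraries, which holds for 30.1% of eligible genes and is again fixed largely by the rule.

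**Figure D3:**
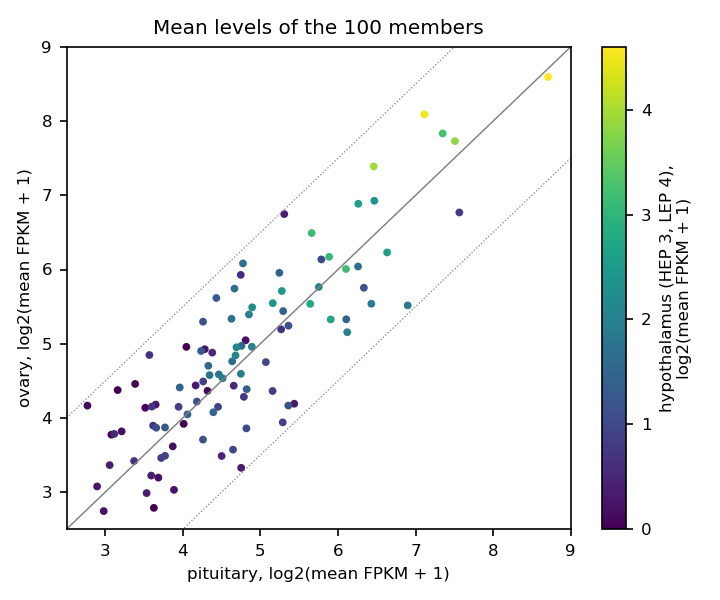
Mean level of each of the 100 members in ovary against pituitary, both as log2(mean FPKM + 1), with the mean of hypothalamus HEP 3 and LEP 4 as colour. The solid line marks equal levels and the dotted lines the distance of 1.5 that the rule allows, and 59 members lie above the solid line and 41 below it.

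The 3 hypothalamus libraries that the rule did not use listed few of the members, whereas HEP 3 listed 92 of 100 above 0 and LEP 4 listed 90. HEP 1 listed 18 of 100 above 0, LEP 5 listed 21 and LEP 6 listed 21. The same libraries listed 63.2%, 67.7% and 65.3% of the eligible genes that are not members, and 36.2%, 40.0% and 37.8% of all 17108 genes. A total of 65 members were at 0 in all 3 libraries, and 5 were at 0 in all 5 hypothalamus libraries. The share of other eligible genes at 0 in all 3 is not given here. The second count is fixed largely by the rule, since the lowest mean of HEP 3 and LEP 4 in the other eligible genes was 0.346 FPKM. Since a value of 0 in an FPKM table may come from an estimate that failed, these counts are numbers of genes listed, not of genes shown to be silent.

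The members that were listed there were not uniformly low. The median of the listed members was 10.21 FPKM in HEP 1, 5.48 FPKM in LEP 5 and 8.38 FPKM in LEP 6, against 1.41 FPKM in HEP 3 and 1.17 FPKM in LEP 4. The rule used HEP 3 and LEP 4 and favours low values there. The medians also cover unlike sets, 18, 21 and 21 members against 92 and 90. Among the eligible genes that are not members, the listed values also had higher medians in HEP 1, LEP 5 and LEP 6. These were 27.97, 24.1 and 28.6 FPKM, against 21.6 and 15.5 FPKM in HEP 3 and LEP 4. In 12 members at least 1 of the 3 libraries exceeded the lowest pituitary or ovary value, and in 5 it exceeded the highest. The matching shares of the other eligible genes are not given here, so these counts are a description of the members only.

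The genes of highest value in these libraries are named after their values were seen. ENSGALG00000027497 reached 471 FPKM in LEP 6, within its pituitary range, but 8.39 FPKM in HEP 1 and 0 in LEP 5. ENSGALG00000005551 had 72.0, 186 and 244 FPKM in HEP 1, LEP 5 and LEP 6, against 29.1 and 13.9 FPKM in HEP 3 and LEP 4, while its pituitaries had 79.1 to 221 FPKM and its ovaries 226 to 324 FPKM. ENSGALG00000001805 had 116 FPKM in HEP 1, 0.491 FPKM in LEP 5 and 25.5 FPKM in LEP 6, against 21.0 to 49.2 FPKM in pituitary and ovary. For these genes the hypothalamus libraries overlapped with the other tissues, or exceeded them. Whether the small number of genes listed has a part in these values was not tested.

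Between the hypothalamus libraries HEP 3 and LEP 4, single libraries with no test, HEP 3 was higher in 72 members, lower in 23 and equal in 5. It was higher in 90.6% of the eligible genes that are not members. After scaling by median ratios these became 58 members higher and 37 lower, and 51.2% of the other eligible genes. A log2 difference above 1 occurred in 6 members, against 6.45% of eligible genes, and below -1 in 1 member, against 0.0953%. The mean of these libraries entered the choice of members, which favours low values there. Differences of low values are understated in log2(FPKM + 1), so nothing particular to the members is read from these shares.

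Members varied between hens of a production group. Their SD on the log2 scale had a median of 0.33 in pituitary and 0.34 in ovary, against 0.23 and 0.20 in the other eligible genes. The highest pituitary value of a member was 1.29 to 7.52 times its lowest, with a median of 1.93, and the ovary ratio had a median of 1.75. In the other eligible genes these medians were 1.52 and 1.43. No sampling error can be given for FPKM without read numbers, so how much of this spread is counting error was not tested.

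The widest members of each tissue are named after their values were seen. ENSGALG00000003014 varied most in ovary, at 8.52 and 2.65 FPKM in HEP 1 and 3 and 18.4, 0.208 and 6.07 FPKM in LEP 4, 5 and 6, an 88.5-fold range. In pituitary it stood evenly at 10.4 to 16.1 FPKM. ENSGALG00000010391 varied most in pituitary, at 18.7, 4.19 and 31.5 FPKM in HEP hens and 8.61, 14.05 and 15.996 FPKM in LEP hens, a 7.52-fold range. Its ovary values were 26.2 to 39.2 FPKM, and it was listed at 0 in all hypothalamus libraries.

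Pituitaries of hens 3 and 6 were high for many members. In LEP 6, 75 of 100 members stood above their own pituitary mean, and 47 had their highest value there, against 57.8% of the other eligible genes. In HEP 3, 69 stood above it and 31 were highest, against 28.5%. HEP 2 and LEP 5 each held the lowest value of 33 members, against 28.2% and 29.6% of the other eligible genes. The ovaries of the same hens were also high, with 69 members above their ovary mean in LEP 6 and 67 in HEP 3, against 29 in LEP 5, where 34 were lowest (24.5% of the other eligible genes).

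The other eligible genes were also high in these pituitaries. Of them, 87.0% stood above their own mean in pituitary LEP 6 and 72.8% in HEP 3. In ovary the shares were 70.1% in LEP 6, 53.8% in HEP 3 and 41.4% in LEP 5. The median deviation of members was 0.26 in pituitary LEP 6 and 0.18 in HEP 3 on the log2 scale, against 0.23 and 0.11 for the other eligible genes. After scaling by median ratios the members' values were 0.051 and 0.071, against 0.026 and -0.002 for the other eligible genes. In ovary HEP 3 the members' median was 0.13, against 0.014 for the other eligible genes. After scaling these were 0.11 and -0.009. In ovary LEP 6 the medians were 0.15 and 0.098, and 0.045 and -0.007 after scaling.

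HEP hens were compared with LEP hens within each tissue, a contrast that the choice of members did not use. Differences are in log2(FPKM + 1), which understates changes of low values. Tests are limma fits over all genes of mean 1 FPKM or more, two-sided, with Benjamini-Hochberg adjustment over all genes tested and a threshold of 0.05. All 100 members were tested in each comparison. The members named below had to show no overlap between HEP and LEP hens in the comparison they are named for, so that this is no result for them.

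In the pituitary, 0 of 100 members passed, and 0% of the 11820 genes tested did. At an unadjusted p under 0.05 there were 5 members, against 244 of all genes (2.06%). The count over all genes moved as well when a hen was left out. Without hen 4 there were 14 members, against 483 of 11821 genes, and without hen 2 there were 10, against 497 of 11793. Without hen 3 there were 3 members, against 154 of 11803 genes. The difference was positive in 48 members and negative in 52 (positive in 42.2% of all genes tested, and in 29 members without hen 5 and 65 without hen 6), from -0.81 to 0.86. The members' median was -0.024 and that of all genes tested -0.030, and the members' median lay between -0.10 and 0.094 when a hen was left out. The SE had a median of 0.23, and the 95% interval of a member reached 0.52 to either side in the median. In 80 members this interval lay wholly within a log2 difference of 1, and in the others it reached beyond. HEP and LEP libraries did not overlap in 6 members, against 5.14% of genes, 4 of them higher in HEP (1.29%) and 2 lower (3.84%).

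Among the members without overlap, ENSGALG00000011419 had the largest difference in the pituitary. It stood at 20.5, 16.4 and 29.5 FPKM in HEP 1, 2 and 3 and at 9.27, 10.02 and 15.9 FPKM in LEP 4, 5 and 6, with means of 22.1 ± 6.72 and 11.7 ± 3.62 FPKM (SD, n = 3 each). The lowest HEP and the highest LEP library were close. The log2 difference was 0.86 (SE 0.26, limma adjusted p = 0.9999). In the ovary the same gene had 16.5 and 22.2 FPKM in HEP hens and 16.2, 21.0 and 27.3 FPKM in LEP hens, with full overlap.

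ENSGALG00000017102 had 7.87, 10.1 and 11.8 FPKM in HEP pituitaries and 7.11, 6.72 and 4.03 FPKM in LEP pituitaries (log2 difference 0.67, SE 0.23, limma adjusted p = 0.9999). Its ovary levels were higher and overlapped, at 16.4 to 26.4 FPKM, and it was at 0 in all 5 hypothalamus libraries.

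Lower in HEP pituitaries was ENSGALG00000000314, at 70.6, 70.1 and 67.2 FPKM against 74.2, 161 and 82.6 FPKM in LEP pituitaries (log2 difference -0.52, SE 0.27, limma adjusted p = 0.9999). LEP 5 alone sets its size, and the difference was -0.17 without hen 5. In hen 5 this gene was at its highest in pituitary and in hypothalamus (168 FPKM) and at its lowest in ovary (72.9 FPKM, against 120 to 146 FPKM in the others). Hypothalamus LEP 5 is 1 of the 3 libraries that listed few genes. The others of these, HEP 1 and LEP 6, had 0 and 42.1 FPKM, so no pattern of hen 5 is read from this value. ENSGALG00000005060 had 60.02, 66.5 and 61.2 FPKM in HEP pituitaries and 81.5, 67.5 and 69.8 FPKM in LEP pituitaries (log2 difference -0.21, SE 0.16, limma adjusted p = 0.9999). Without hen 4 its difference was -0.13.

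In the ovary, 0 of 100 members passed, against 0.0325% of 12326 genes, or 4 genes. At an unadjusted p under 0.05 there were 4 members, against 172 of all genes (1.4%). Without hen 6 there were 13 members, but the count over all genes also rose, to 1237 of 12255. Without hen 5 there was 1 member, against 145 of 12347 genes. The difference was positive in 60 members and negative in 40 (positive in 46.0% of all genes tested, and in 43 members without hen 3), from -0.77 to 0.98. The median was 0.073 over the members and -0.019 over all genes tested, and the former was -0.051 without hen 3 and 0.18 without hen 6. The SE had a median of 0.25, and the interval reached 0.61 to either side in the median, staying within a log2 difference of 1 in 71 members. Libraries did not overlap in 16 members, against 14.2% of genes, 9 of them higher in HEP (4.68%) and 7 lower (9.49%).

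ENSGALG00000012973 had the largest positive difference among the members without overlap in the ovary, at 9.93 and 13.6 FPKM in HEP against 4.93, 3.52 and 8.74 FPKM in LEP ovaries (HEP and LEP means 11.8 ± 2.61, SD, n = 2, and 5.73 ± 2.70, SD, n = 3). Its log2 difference was 0.98 (SE 0.36, limma adjusted p = 0.9999). The gap between the groups was small beside the spread of the LEP ovaries. In pituitary the groups overlapped, at 13.9, 8.12 and 17.5 FPKM in HEP hens and 15.3, 8.68 and 7.55 FPKM in LEP hens.

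ENSGALG00000010762, also the last member by rank, had 5.89 and 8.79 FPKM in HEP ovaries and 4.17, 4.94 and 4.67 FPKM in LEP ovaries (log2 difference 0.56, SE 0.24, limma adjusted p = 0.9999). The HEP ovaries differed more from each other than the lower of them did from LEP, and the difference was 0.30 without hen 3.

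Lower in HEP ovaries was ENSGALG00000005258, at 8.998 and 12.5 FPKM against 15.1, 16.2 and 17.8 FPKM (log2 difference -0.57, SE 0.21, limma adjusted p = 0.9999). It is 1 of the 5 members at 0 in every hypothalamus library. The difference was -0.35 without hen 1. ENSGALG00000008757 had 14.6 and 12.03 FPKM in HEP ovaries and 17.6, 20.3 and 20.3 FPKM in LEP ovaries (log2 difference -0.51, SE 0.18, limma adjusted p = 0.9999). Its pituitary levels were higher and overlapped between the groups, at 29.3 to 53.1 FPKM.

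**Figure D4:**
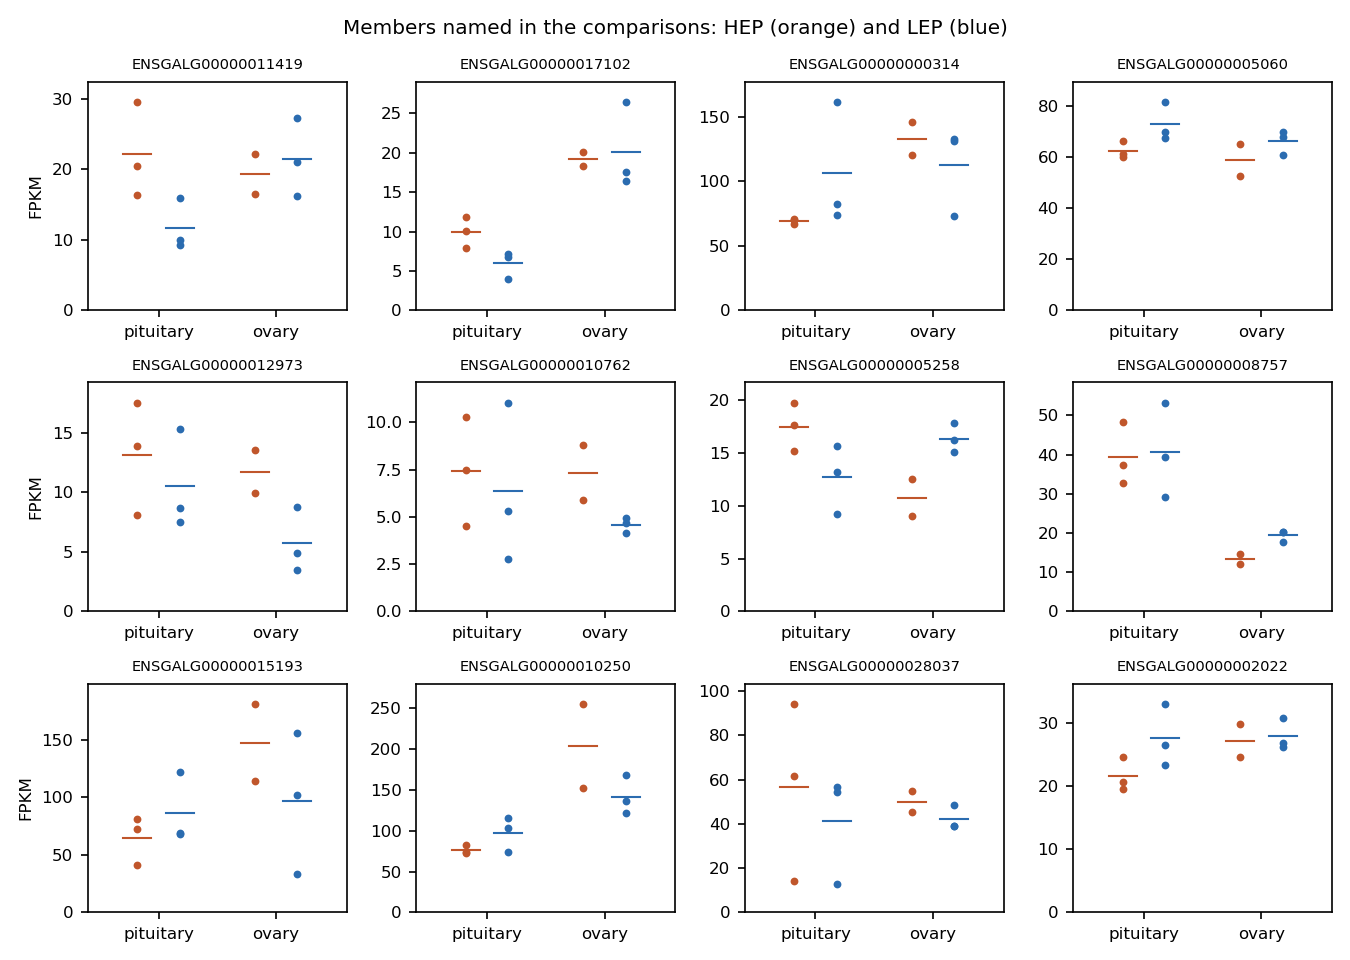
FPKM of the 12 members named in the comparisons between production groups, by tissue, each axis starting at 0 (points are libraries, bars are means, orange is HEP with 3 pituitaries and 2 ovaries, blue is LEP with 3 of each). In ENSGALG00000011419 the groups are apart in pituitary and overlap in ovary, and in ENSGALG00000012973 the reverse holds.

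Signs in the 2 tissues were compared as a description, the ovaries coming from hens whose pituitaries were also sequenced. The difference was positive in both tissues in 31 members and negative in both in 23, so that 54% had the same sign. Among the 11103 genes tested in both tissues the share was 62.7%. In 17 members the pituitary was positive and the ovary negative, and in 29 the reverse.

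**Figure D5:**
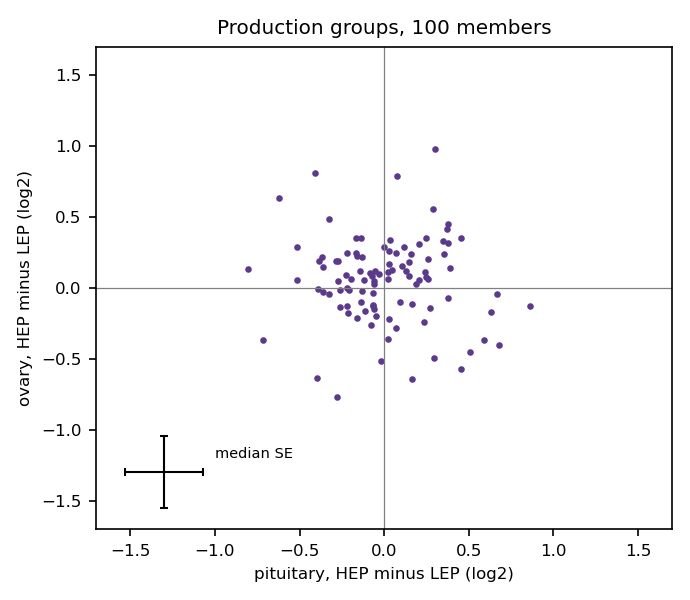
HEP minus LEP difference of each of the 100 members in ovary against pituitary, on the log2(FPKM + 1) scale, with the median SE (0.23 in pituitary and 0.25 in ovary) as a cross. No member exceeds 1 in either direction in either tissue, and 54% lie in the quadrants of equal sign.

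The difference of the HEP effect between pituitary and ovary was tested over 11 libraries with 4 group means. This fit has no term for the hen, so the pituitary and ovary of a hen were taken as independent. The SE, p and intervals given for this comparison come from it. No member passed (0 of 100, against 0.0158% of 12638 genes), and 5 had an unadjusted p under 0.05, against 1.04%. Without hen 4 there were 11 such members, against 282 of 12620 genes, and without hen 6 there were 9, against 633 of 12603. The main run had 131 such genes, so the count over all genes rose as well. The difference was positive in 40 members and negative in 60 (positive in 46.2% of all genes tested, and in 52 members without hen 2), and its median was -0.085 over the members and -0.020 over all genes tested. With hen as a block the members' median was 0.013, since hen 2 then drops out. In the fit with 4 group means, the interval of a member reached 0.80 to either side in the median. It stayed within a log2 difference of 1 in 40 members, and in 4 members the difference itself exceeded 1 in size. Taking pituitary minus ovary per hen, HEP and LEP hens did not overlap in 17 members, against 10.7% of genes, 11 of them positive (6.43%) and 6 negative (4.26%).

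Of the members without overlap in this comparison, ENSGALG00000005258 had the largest positive difference of the effects. Pituitary minus ovary was 0.90 and 0.61 in hens 1 and 3 and 0.054, -0.75 and -0.40 in hens 4, 5 and 6 on the log2 scale (difference of the effects 1.03, SE 0.30, limma adjusted p = 0.9999). Behind it stand the lower ovary values in HEP given above and pituitary values of 17.6, 15.2 and 19.7 FPKM in HEP hens against 15.7, 9.20 and 13.2 FPKM in LEP hens. For ENSGALG00000011419 the difference was 0.99 (SE 0.40, limma adjusted p = 0.9999), with pituitary minus ovary at 0.29 and 0.40 in HEP hens and between -0.998 and -0.75 in LEP hens.

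On the negative side, ENSGALG00000015193 had 72.9, 81.3 and 41.1 FPKM in HEP pituitaries and 122, 68.6 and 68.8 FPKM in LEP pituitaries. Its ovaries had 181 and 114 FPKM in HEP hens and 156, 33.7 and 102 FPKM in LEP hens. The difference of the effects was -1.22 (SE 0.72, limma adjusted p = 0.9999), and -0.73 without hen 5, whose ovary is the lowest. ENSGALG00000010250 had 74.3, 73.0 and 82.0 FPKM in HEP pituitaries and 73.9, 103 and 116 FPKM in LEP pituitaries. Its ovaries had 153 and 255 FPKM in HEP hens and 136, 122 and 168 FPKM in LEP hens. Its difference was -0.82 (SE 0.33, limma adjusted p = 0.9999), and -0.50 without hen 3.

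The mean of pituitary and ovary was taken per hen in hens 1, 3, 4, 5 and 6, with the hen as the unit. Of the members 0 passed, against 0.0553% of 12648 genes, or 7 genes. At an unadjusted p under 0.05 there were 8 members, against 590 of all 12648 genes (4.66%). The count over all genes moved with the setting too. Without hen 6 there were 26 members, against 1526 of 12611 genes, and without hen 5 there were 5, against 458 of 12634. Median-ratio scaling gave 16 members, against 1318 of 12606 genes. With the libraries taken as independent there were 4 members, against 269 of 12638 genes. The difference was positive in 60 members and negative in 40 (positive in 47.4% of all genes tested, and in 45 members without hen 3 and 73 without hen 6), and the median was 0.050 over the members and -0.011 over all genes tested. The former was -0.032 without hen 3 and 0.18 without hen 6. The interval reached 0.44 to either side in the median and stayed within 1 in 87 members. HEP and LEP hens did not overlap in 19 members, against 21% of genes, 12 of them higher in HEP (8.77%) and 7 lower (12.3%).

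ENSGALG00000012973 again had the largest positive difference of those without overlap, with hen means of 3.67 and 4.04 in HEP and 3.30, 2.73 and 3.19 in LEP on the log2 scale (difference 0.79, SE 0.21, limma adjusted p = 0.9472). ENSGALG00000028037 followed at 5.89 and 6.05 in HEP against 4.71, 5.59 and 5.56 in LEP (difference 0.68, SE 0.26, limma adjusted p = 0.9472). Its pituitary FPKM ran from 12.8 in LEP 4 to 94.0 in HEP 3, with 14.4 in HEP 2, whose ovary was not analysed here and which is outside this mean. Without hen 4 the difference was 0.40, and with all 11 libraries taken as independent, HEP 2 included, it was 0.30.

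Lower in HEP hens was ENSGALG00000008757, at 4.61 and 4.39 against 4.78, 4.67 and 5.08 (difference -0.34, SE 0.16, limma adjusted p = 0.9472), and at a difference of -0.22 without hen 6. ENSGALG00000002022 stood at 4.70 and 4.52 against 4.77, 4.798 and 4.94 (difference -0.23, SE 0.13, limma adjusted p = 0.9472), and at a difference of -0.14 without hen 3. It had 24.6 to 30.9 FPKM in ovary, with overlap of the groups, and 20.7, 24.7 and 19.5 FPKM in HEP against 26.5, 23.3 and 33.0 FPKM in LEP pituitaries.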

How the data were processed

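RNA of 16 libraries from 6 hens was sequenced on an Illumina instrument, per the series design. The authors deposited 1 table of FPKM values with a column per library. Which aligner, quantification tool, genome build and annotation they used is not given in the sources used here. Low values (under 0.3 FPKM) were searched for whole-read steps. Only 3.63% to 14.3% of the ratios between libraries of a tissue lay within 0.05 (log2) of the commonest ratio, so reads were not recovered and depth is unknown. No pair of libraries was identical.

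The members and lists were chosen with earlier results of these data known. Gene lists by symbol, for cell types and pathways, could not be applied without names. Fits used limma 3.58.1 (empirical Bayes with trend) in R 4.3.3 on log2(FPKM + 1). They were also run on simulated data with libraries drawn independently, and the outcome of that run is not given here. Tables were made with Python 3.11.15 and pandas 2.3.3. Named members were, per comparison, the 2 highest and 2 lowest in log2 difference among those without overlap of HEP and LEP hens. For levels they were the 2 of largest gap, the 2 of highest min(P, O), the last inside and the first outside the limit. Others are marked as chosen after their values were seen. Title numbers and codes tie the tissues of a hen together. Deviations from group means were correlated between pituitary and ovary of a hen across genes. The r was 0.148 in hens 1 and 3 and -0.037, 0.042 and -0.029 in hens 4, 5 and 6. The 2 HEP ovaries deviate by equal and opposite amounts from their mean, so hens 1 and 3 are not separate checks. Values this low cannot settle the pairing, which rests on the titles and codes. Alternatives were a pseudocount of 0.1, no filter, median-ratio scaling, no trend, hen as block, and leaving out each hen.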

Additional observations from a re-analysis of the deposited data

Results flagged for a closer look

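ENSGALG00000000314 stood at 161 FPKM in pituitary LEP 5, far from the other 5 pituitaries at 67.2 to 82.6 FPKM. This was 1 of 42 checks of a tissue's libraries over the 21 genes named. Such a check marks about 1 in 20 by chance, but that rate need not hold for genes named by their values. This gene was named for its pituitary difference, whose size LEP 5 itself sets.

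The hypothalamus libraries HEP 1, LEP 5 and LEP 6 are outside the choice of members and outside the comparisons. In them 1, 1 and 3 members respectively were listed above every pituitary and ovary library. The share of other eligible genes listed so high is not given here, so nothing particular to the members is read from these counts.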

How the results depend on the processing

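No member passed in any of the 4 comparisons under any alternative run, with a lowest adjusted p of 0.7684 in pituitary, 0.3588 in ovary, 0.9248 for the difference of effects and 0.3261 for the mean of both tissues. Of 160 alternative values of the named members, 0 changed sign. These members were named because their HEP and LEP hens did not overlap. Within a tissue and for the mean, leaving out a hen could therefore not reverse their sign. Dropping the filter or the trend changes no difference. The count is thus largely fixed by the choice of the named members. The count over all genes was 0 in pituitary (limma, 244 at an unadjusted p under 0.05), 1 with a pseudocount of 0.1, and 1 to 4 when a hen was left out (4 without hen 1). In ovary it was 4, and 4 to 12 when a hen was left out (12 without hen 1, 8 without hen 3, 7 without hen 5 and 10 without hen 6). For the difference of effects it was 2, and 2 to 8 when a hen was left out (8 without hen 1, 5 without hen 3, 4 without hen 4 and 5 without hen 6). For the mean it was 7, 4 with median-ratio scaling, 2 with no hen block, and 7 to 21 when a hen was left out (21 without hen 1 and 19 without hen 3). With hen as block (the replicate block) the difference of effects passed for 3 genes and 0 members, and the block changed no call of a member. Without hen 1 or 3, a single HEP hen remains in the ovary and in the mean, assumed to vary like the LEP hens.

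Of the 100 members, 72 stayed when all 5 hypothalamus libraries gave H, 86 with HEP 3 and 84 with LEP 4 alone, 83 when P and O were less than 1 apart, 88 after median-ratio scaling, and 79 to 97 when a hen was left out. Reads per gene are unknown, so the limits set by depth cannot be given.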
